A study of Mus musculus with 80 samples.

Results

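The hypoxia response genes described here are *Hif1a*, *Vegfa*, *Slc2a1*, *Egln3*, *Bnip3*, *Ankrd37*, *Adm* and *Ddit4*. They were taken by their gene symbols, all 8 were found, and they are 8 of the 15919 genes of the sort comparison and 8 of the 16000 genes of the cell preparation comparison. All 8 passed the filter on low counts in every fit, which asks for more than 5 counts in every sample of some group. The RNA-Seq data come from brains of Cx3cr1-NuTRAP mice and hold 80 libraries from 22 mice. The mice carry Cx3cr1(Jung)-cre/Ert2 and the floxed NuTRAP reporter, and all of them, in every group, received tamoxifen at about 3 months of age at 100 mg per kg, so there is no group without cre or without tamoxifen. Cre under the Cx3cr1 promoter tags ribosomes with GFP in microglia and also in other cells that express Cx3cr1, such as border macrophages. TRAP is the RNA pulled down with those ribosomes, and Input is the RNA of the lysate before the pull-down.

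The sort comparison has 48 libraries, an Input and a TRAP library for each preparation. Tissue is homogenized brain, Cell is the unsorted suspension after enzymatic and mechanical dissociation with a heated step, and autoMACS, autoMACS to Tyto, Tyto and FACSAria are cells sorted from such suspensions. Each group has 4 mice, except autoMACS to Tyto with 3 and Tyto with 5. The cell preparation comparison has 32 libraries with 4 mice per group, and holds Tissue, Cell without inhibitors, written (−), Cell with transcription and translation inhibitors during dissociation, written (+), and Dounce, a mechanical preparation kept cold. Tissue in both comparisons came from the same 4 mice, as did Cell in the sort comparison, and the (−) and (+) Inhibitors suspensions came from another 4 mice. The Dounce mice gave no other libraries, and the sorted mice gave no Tissue or Cell libraries. Preparation and mice cannot be told apart for Dounce or for the sorts against Tissue or Cell. The same holds for Cell (−) or (+) Inhibitors against Tissue.

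In cells with enough oxygen, prolyl hydroxylases mark the HIF alpha subunits for degradation. When oxygen is low the subunits persist, pair with ARNT and bind short DNA elements near target genes. *Hif1a* encodes the main subunit, which is controlled mostly at the protein level, so that its transcript is not itself a readout of HIF activity. *Egln3* encodes a prolyl hydroxylase that is also a HIF target. *Vegfa* and *Adm* encode secreted peptides that act on vessels, *Slc2a1* encodes the glucose transporter GLUT1, which is abundant in endothelial cells of brain vessels, *Bnip3* acts in the removal of mitochondria, *Ddit4* restrains mTORC1 and also responds to glucocorticoids, and *Ankrd37* is a HIF target whose role is less clear.

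Promoter sequence was read for all 8 genes from RefSeq on GRCm38.p6, in a window of 250 bases before and 50 bases after the start. The core of the HIF binding element, ACGTG or GCGTG, was counted on both strands, and a palindromic CACGTG counts once on each. *Bnip3* held 5 cores and *Ankrd37* 4, *Hif1a* 3, *Slc2a1*, *Adm* and *Ddit4* 2 each, and *Egln3* 1. *Vegfa* held 0 at one annotated start and 2 at another. Of 32851 promoters of the same length, 43.8% held at least 1 core, 20.6% at least 2, 8.93% at least 3 and 3.86% at least 4. The 250 bases before the start are shown for *Bnip3* and *Ankrd37*, which held the most cores, and for *Slc2a1*, which had the largest fold change between Cell and Tissue. Capitals mark the cores, read 5′ to 3′ on the strand of the gene, and a match is a description of these letters only.
*Bnip3* (chr7:138909507-138909756, minus strand): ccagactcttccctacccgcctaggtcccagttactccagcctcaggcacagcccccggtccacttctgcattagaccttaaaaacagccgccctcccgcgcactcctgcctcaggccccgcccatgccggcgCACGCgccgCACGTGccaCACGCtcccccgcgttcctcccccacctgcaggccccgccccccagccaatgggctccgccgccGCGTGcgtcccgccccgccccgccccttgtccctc
*Ankrd37* (chr8:45999851-46000100, minus strand): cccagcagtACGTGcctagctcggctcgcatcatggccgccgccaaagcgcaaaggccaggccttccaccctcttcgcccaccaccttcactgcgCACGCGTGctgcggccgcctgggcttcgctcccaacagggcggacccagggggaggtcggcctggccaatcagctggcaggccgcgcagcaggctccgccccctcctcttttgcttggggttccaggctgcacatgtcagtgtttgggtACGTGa
*Slc2a1* (chr4:119108495-119108744, plus strand): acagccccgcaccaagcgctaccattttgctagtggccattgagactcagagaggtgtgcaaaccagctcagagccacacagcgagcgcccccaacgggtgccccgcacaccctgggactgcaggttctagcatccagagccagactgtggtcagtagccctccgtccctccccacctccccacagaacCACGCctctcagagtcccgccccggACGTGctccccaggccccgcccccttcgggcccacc

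Total counts ran from 7129464 to 20168116 per library in the sort comparison. In the cell preparation comparison Dounce-TRAP had 2471448 to 4724538 and the libraries other than Dounce 8617626 to 14650287. The unit of a level is CPM (counts-per-million after TMM), with Input and TRAP libraries scaled separately. A gene was called where edgeR's quasi-likelihood test gave a Benjamini-Hochberg FDR under 0.1 over all genes tested and the fold change was above 2, and errors of log2 fold changes are standard errors. In bulk samples, fewer cells of a type and less RNA per cell cannot be told apart. The 10 microglial markers summed to 5697 to 7146 CPM in Tissue-TRAP and 34360 to 36960 CPM in Cell-TRAP. In the 16 sorted TRAP libraries they summed to 41830 to 48820 CPM, so the labels match these markers. Tissue-TRAP of the sort comparison also held RNA of other cells. Astrocyte markers summed there to 3326 to 5082 CPM, against 3480 to 3751 CPM in Tissue-Input. Neuron markers summed to 4754 to 5495 against 5741 to 6076 CPM, and oligodendrocyte markers to 632.5 to 869 against 3306 to 3950 CPM.

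Per kb of merged exons, Tissue-Input of the sort comparison held *Ddit4* at 42.4 ± 8.48 CPM (SD, n = 4) and *Bnip3* at 32.9 ± 1.63. *Slc2a1* followed at 17.1 ± 2.67, *Vegfa* at 11.6 ± 0.64 and *Hif1a* at 9.46 ± 1.13. *Egln3* at 4.43 ± 0.18 and *Ankrd37* at 4.27 ± 1.13 did not differ beyond their spread, and *Adm* was lowest at 1.41 ± 0.24. The gap between *Ddit4* and *Bnip3* was close to the SD of *Ddit4*.

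**Figure D1:**
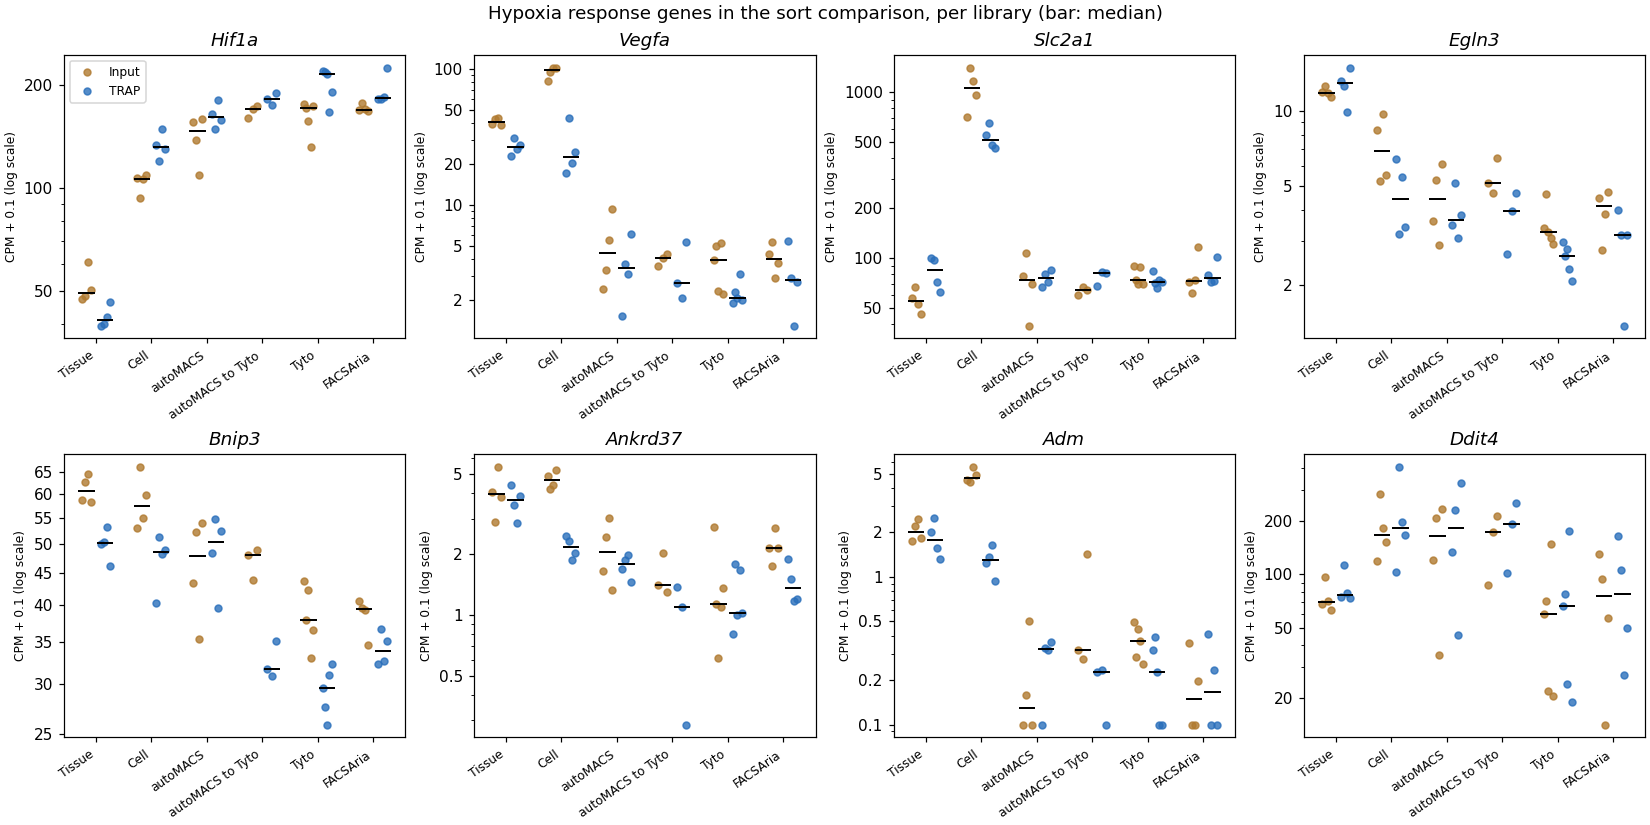
CPM + 0.1 (log scale) of the 8 genes in each library of the sort comparison, Input in brown and TRAP in blue, with a bar at the median. *Slc2a1*, *Vegfa* and *Adm* are higher in Cell-Input than in every sorted library, while *Hif1a* in TRAP is lowest in Tissue.

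The unsorted suspension was compared with tissue to see what dissociation does to these transcripts. In Input, 5 of the 8 genes were called higher in Cell and 0 lower, where 28.5% of all genes tested were called higher and 17.5% lower. In TRAP, 3 were called higher and 1 lower, where 25.1% of all genes were called higher and 29.3% lower. Scaling by size factors moved the median of all genes in TRAP by -0.33 and the share of higher calls among all calls from 46.2% to 35%. The 8 genes had a median log2 fold change of 1.11 in Input and -0.06 in TRAP, against 0.17 and -0.01 for all genes tested.

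*Hif1a* stood at 39.4, 39.96, 41.8 and 46.2 CPM in the 4 Tissue-TRAP libraries. In Cell-TRAP it stood at 133.9, 119.8, 149.3 and 130.4 CPM. The groups did not overlap, and *Hif1a* rose 3.18-fold (log2 1.67 ± 0.10, FDR 2.74e-14). In Input it went from 47.1 to 60.6 CPM in Tissue to 93.2 to 109 CPM in Cell, a log2 of 1.01 ± 0.11 (FDR 2.71e-08), which is a fold of 2.01. This Input value is at the fold threshold and the call did not hold with the mouse as a block (log2 0.88). Beside it, 10 of 10 microglial markers were called higher in Cell-TRAP, and their part in the result was not tested.

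*Egln3* went the other way in TRAP. It stood at 13.1, 12.5, 9.77 and 14.8 CPM in Tissue-TRAP and at 6.28, 3.11, 5.34 and 3.32 CPM in Cell-TRAP. All Cell-TRAP values lay below all Tissue-TRAP values, and *Egln3* fell by 1.47 ± 0.27 on the log2 scale (FDR 2.15e-05). In Input the log2 fold change was -0.73 ± 0.24 (FDR 0.00902), under the fold threshold. The 7 neuron markers summed to 4754 to 5495 CPM in Tissue-TRAP and to 107 to 304 CPM in Cell-TRAP, and 7 of 7 were called lower there. Their part in the fall of *Egln3* was not tested.

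*Slc2a1* had the largest change of the 8. Tissue-Input held 57.3, 66.9, 52.98 and 46.2 CPM and Cell-Input 705, 1401, 1159 and 966 CPM. It rose 18.9-fold in Input (log2 4.24 ± 0.26, FDR 1.23e-12). In TRAP it rose from 100.1, 97.0, 71.6 and 62.5 CPM to 549, 651, 479 and 461 CPM, which is 6.46-fold (log2 2.69 ± 0.15, FDR 8.99e-15). The 7 endothelial markers rose alongside, 7 of 7 called in Input, and summed to 51.9 to 65.6 CPM in Tissue-Input and 959 to 1822 CPM in Cell-Input. In TRAP they summed to 124 to 184 CPM in Tissue and 782 to 812 CPM in Cell. Their part in the change of *Slc2a1* was not tested.

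*Vegfa* rose only in Input among these fractions. It stood at 39.2, 42.3, 43.3 and 38.7 CPM in Tissue-Input and at 81.6, 94.7, 101.4 and 100.4 CPM in Cell-Input, 2.31-fold higher (log2 1.21 ± 0.25, FDR 0.000148). In TRAP, Tissue held 22.6, 31.0, 25.6 and 27.6 CPM and Cell 17.1, 43.4, 20.3 and 24.2 CPM, so the groups overlapped (log2 -0.03 ± 0.32, FDR 0.937). *Adm* likewise went from 1.66, 2.12, 2.36 and 1.73 CPM in Tissue-Input to 4.41, 4.29, 5.48 and 4.82 CPM in Cell-Input (log2 1.27 ± 0.49, FDR 0.0258), with -0.54 ± 0.54 in TRAP (FDR 0.358). The effect of dissociation differed between the fractions for 3 of the 8 genes by the interaction test, all lower in TRAP than in Input, where 5.74% of all genes were called higher and 29.5% lower. These were *Slc2a1* (log2 -1.47 ± 0.27, FDR 1.97e-05), *Vegfa* (-1.15 ± 0.42, FDR 0.0186) and *Adm* (-1.72 ± 0.77, FDR 0.0527), whose FDR was 0.115 without the Tissue libraries of mouse 946 and 0.123 without the Cell libraries of mouse 949. With size factors the share of higher calls among all genes in this interaction moved from 16.3% to 5.23%. The summed astrocyte markers were 3480 to 3751 CPM in Tissue-Input and 7884 to 10460 CPM in Cell-Input, and 4 choroid plexus markers, a list added after the values were seen, 684 to 1010 and 1707 to 4782 CPM. Their part in the *Vegfa* and *Adm* results was not tested.

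*Ddit4* varied most among mice. Tissue-TRAP held 74.6, 112.5, 78.2 and 73.7 CPM and Cell-TRAP 103, 407, 197 and 168 CPM, and the lowest Cell value lay below the highest Tissue value. It rose 2.58-fold (log2 1.37 ± 0.61, FDR 0.0421), but without the library of mouse 947 at 407 CPM the log2 fold change was 0.88 (FDR 0.196). *Ddit4* also lost this call with size factors (FDR 0.116), with at least 10 counts in every sample (FDR 0.116) and with the DESeq2 test (FDR 0.135). In Input it rose 2.49-fold (log2 1.32 ± 0.59, FDR 0.0509), and the FDR was 0.151 without the Cell library of mouse 947 and 0.103 without the Tissue library of mouse 949. With the mouse as a block, the same comparisons gave 1.16 (FDR 0.000555) in TRAP and 1.13 (FDR 2.51e-05) in Input. *Bnip3* did not pass the test in either fraction, with -0.06 ± 0.11 in Input and -0.08 ± 0.10 in TRAP. *Ankrd37* gave 0.21 ± 0.34 in Input and -0.78 ± 0.32 in TRAP.

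The 4 sorts were compared with the unsorted suspension with equal weight for each sort. Some mice gave libraries of a pair of sorts, and the test treats these as independent. In Input, 0 of the 8 genes were called higher and 4 lower, where 17.1% of all genes were called higher and 34.7% lower. In TRAP, 0 were called higher and 3 lower, where 0.836% were called higher and 23.6% lower. Size factors moved the median of all genes in Input by -0.21.

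*Slc2a1* in the 16 sorted TRAP libraries ran from 65.7 CPM through a median of 73.3 to 101.3 CPM, all below the 461 CPM of the lowest Cell-TRAP library, and fell by 2.80 ± 0.10 on the log2 scale (6.95-fold lower, FDR 3.7e-18). In Input it fell by 3.84 ± 0.16 (14.3-fold lower, FDR 1.96e-16). The endothelial markers summed to 80.1 to 162 CPM in the sorted TRAP libraries. *Vegfa* fell further, from the Cell-Input levels to 2.12 CPM at the lowest, a median of 3.89 and 9.31 CPM at the highest in the sorted Input libraries, which is 23.3-fold lower (log2 -4.54 ± 0.18, FDR 1.36e-16). In TRAP it ran from 1.20 through 2.58 to 5.99 CPM, 9.0-fold lower than in Cell (log2 -3.17 ± 0.24, FDR 3.27e-11). The summed astrocyte markers ran from 127 to 225 CPM in sorted TRAP libraries against 1669 to 1876 CPM in Cell-TRAP, and their part in these results was not tested.

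*Adm* was nearly absent after sorting. Of the 16 sorted Input libraries 12 held 3 counts or fewer, 4 of them 0, and the highest held 10 counts. Of the 16 sorted TRAP libraries 10 held 3 counts or fewer, 6 of them 0, and the highest held 5 counts. It was called lower in both fractions (FDR 2.87e-10 in Input, 4.22e-06 in TRAP), and no fold is given because it rests on so few counts. *Adm* passed the filter on low counts only through Tissue and Cell, so these calls are not independent of that filter. *Ankrd37*, at 0.513 to 2.93 CPM in sorted Input libraries against 4.10 to 5.11 CPM in Cell-Input, fell by 1.43 ± 0.26 (FDR 2.58e-05), and in TRAP its log2 fold change was -0.77 ± 0.26, under the fold threshold.

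*Hif1a* did not follow them. It ran from 148.8 CPM through a median of 182.1 to 225.1 CPM in the sorted TRAP libraries, with a log2 fold change of 0.47 ± 0.07 against Cell-TRAP (FDR 8.04e-06), under the fold threshold. *Bnip3* (-0.41 ± 0.07) and *Egln3* (-0.54 ± 0.22) had lower values in sorted TRAP libraries without passing 2-fold. *Ddit4* gave -0.85 ± 0.44 in Input (FDR 0.0769) and -0.86 ± 0.45 in TRAP (FDR 0.111) for the mean of the sorts against Cell, under the fold threshold. That mean covers unlike values, since in Input the log2 fold change against Cell was -1.53 in Tyto (FDR 0.0155), -1.33 in FACSAria (FDR 0.0464), -0.31 in autoMACS (FDR 0.641) and -0.23 in autoMACS to Tyto (FDR 0.754). In TRAP it was -1.60 in Tyto (FDR 0.022) and -1.34 in FACSAria (FDR 0.0718). The mice of these sorts also differed. Among the 4 sorts themselves, 0 of the 8 genes were called in Input, where 7.42% of all genes were called, and 0 in TRAP, where 4.17% were. At an unadjusted p under 0.05, edgeR gave 2 of the 8 in Input and 2 in TRAP, and the DESeq2 test called 1 in Input and 0 in TRAP. The shares of all genes at these other criteria are not given here. *Bnip3* in TRAP differed across the sorts (FDR 1.64e-05) with a largest difference of 1.67-fold, and autoMACS held 39.5 to 54.7 CPM against 25.8 to 36.6 CPM in the other 3 sorts.

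**Figure D2:**
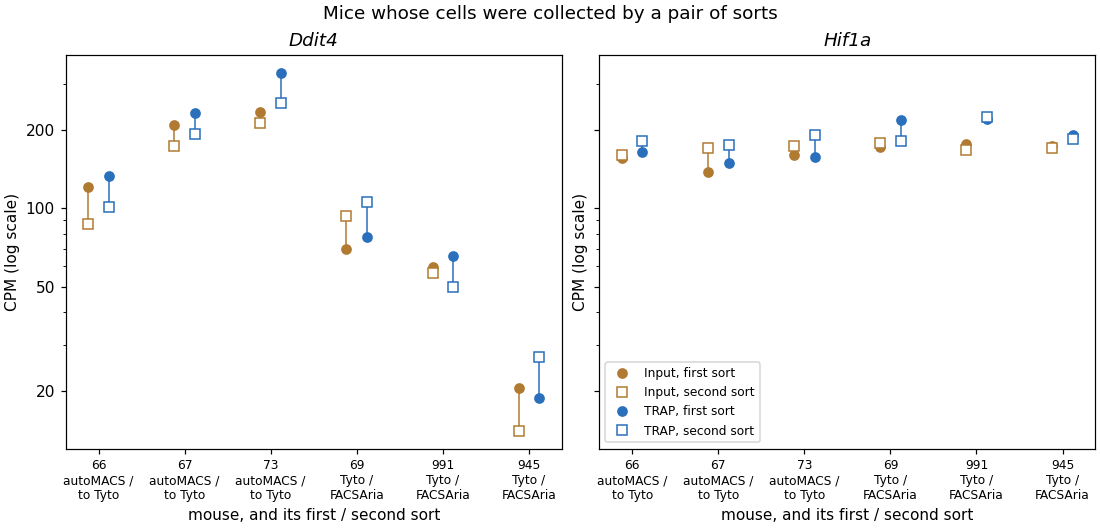
CPM (log scale) of *Ddit4* and *Hif1a* in the 6 mice whose cells were collected by a pair of sorts, with a filled circle for the first sort, an open square for the second and a line joining them. Tyto and FACSAria took separate hemispheres in parallel, so for them first and second give only the order on the axis. For *Ddit4* the 2 sorts of a mouse lie at most 1.45-fold apart. In Input the mice of the autoMACS pair lie at 86.9 to 234 CPM and those of Tyto and FACSAria at 14.1 to 93.7 CPM, where mouse and sorts cannot be told apart.

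For *Ddit4* the mice that shared a pair of sorts kept the same order in both sorts. In Input, mouse 66 held 121 CPM in autoMACS and 86.9 CPM in autoMACS to Tyto, mouse 67 held 209 and 174 CPM, and mouse 73 held 234 and 213 CPM. In Tyto and FACSAria, mouse 69 held 70.2 and 93.7 CPM, mouse 991 held 59.4 and 56.5 CPM, and mouse 945 held 20.6 and 14.1 CPM. The ranges of the trios overlapped. Among mice without a pair of sorts, autoMACS mouse 72 held 34.7 CPM in Input and FACSAria mouse 992 held 131 CPM. Tyto mice 822 and 823 held 21.7 and 148 CPM. The trios are different animals, so mouse and sorts cannot be told apart between them, and each trio is too small for a correlation. *Vegfa* in Input also kept the same order in both trios.

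The cell preparation comparison asked the same question with suspensions from another 4 mice, while its Tissue libraries came from the same 4 mice as before. Against Tissue, Cell (−) Inhibitors had 4 of the 8 genes called higher and 0 lower in Input, where 25.6% of all genes were called higher and 19.1% lower. In TRAP 3 were called higher and 1 lower, where 22.3% were called higher and 30.8% lower. *Slc2a1* rose 11.5-fold in Input (log2 3.52 ± 0.16) and 3.89-fold in TRAP (log2 1.96 ± 0.17, FDR 5.2e-09). *Hif1a* rose 3.16-fold in TRAP (log2 1.66 ± 0.12, FDR 2.71e-10), from 44.1 to 56.8 CPM in Tissue-TRAP to 157 to 172 CPM in Cell-TRAP (−). *Egln3* fell by 1.50 ± 0.39 in TRAP. *Ddit4* rose by 1.25 ± 0.34 (log2) in TRAP, and without mouse 1362, at 352 CPM, the log2 fold change was 0.86. *Vegfa* rose 2.01-fold in Input, a call at the threshold that was lost under 8 alternatives, and *Adm* rose 2.10-fold in Input, with log2 values of 0.88, 0.93 and 0.86 without mouse 946, 949 or 1362.

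**Figure D3:**
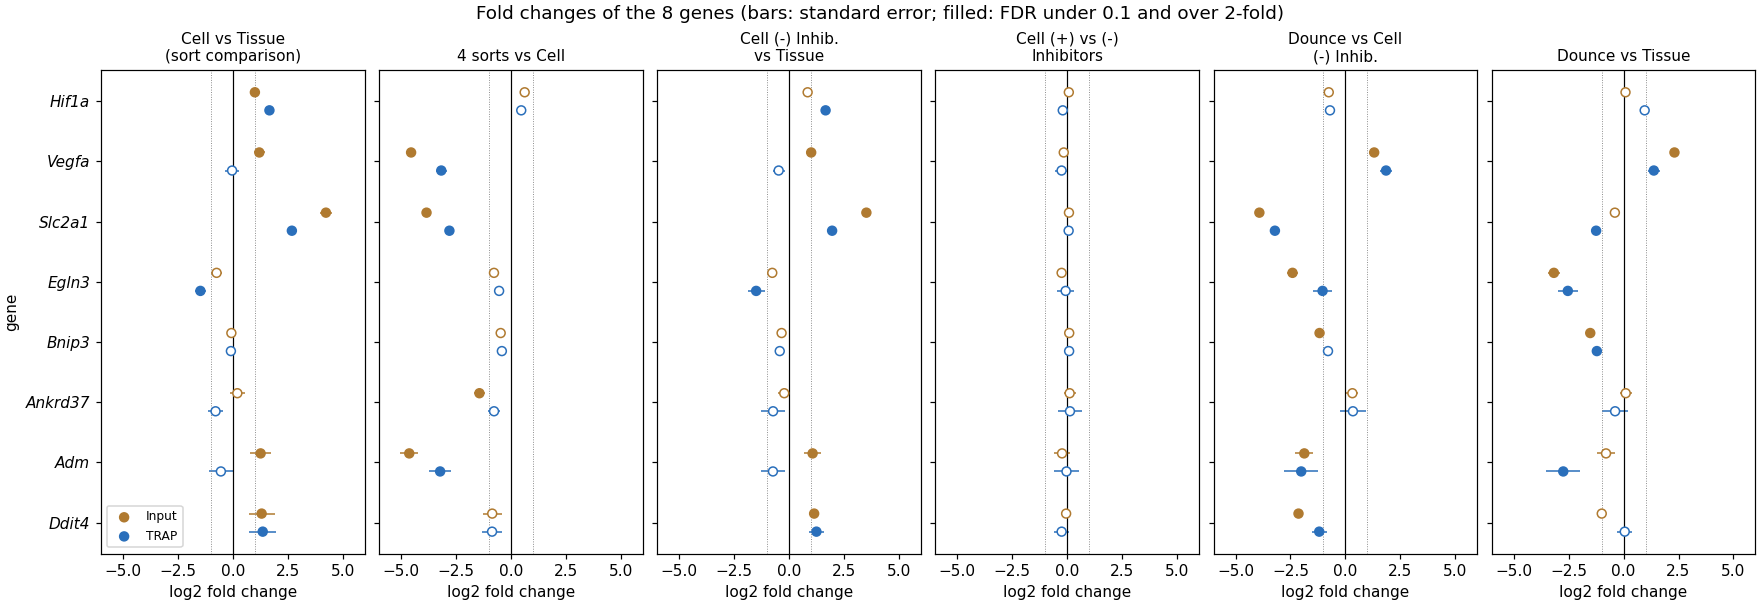
Log2 fold changes of the 8 genes in 6 comparisons, Input in brown and TRAP in blue, with bars for the standard error, dotted lines at 2-fold and filled points for calls. Without inhibitors *Slc2a1* lies far to the right against Tissue, and all points lie near 0 for Cell (+) against (−) Inhibitors.

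The inhibitors block transcription and translation during dissociation, so this comparison asks which of the differences need new transcription in that step. In Input 0 of the 8 genes were called, where 0% of all genes were called higher and 0.311% lower, and in TRAP 0 were called, where 0.00679% were called higher and 0.632% lower. At an unadjusted p under 0.05, edgeR gave 0 of the 8 in both fractions, and the DESeq2 test called 0 in both. The mice are paired here, and with the mouse as a block 0 of the 8 were called, while calls among all genes in TRAP went from 94 to 150. Without the block, the largest fold among the 8 was 1.2 in TRAP (*Vegfa*) and 1.19 in Input (*Egln3*). A call needs more than 2-fold, so counts of calls with the block or the DESeq2 test cannot decide on smaller changes.

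*Hif1a* in Cell-TRAP stood at 157, 169, 168 and 172 CPM without inhibitors and at 143, 132, 153 and 150 CPM with them. The values with inhibitors all lay below those without, by 0.20 ± 0.11 on the log2 scale (FDR 0.676), and the 95% interval ran from -0.44 to 0.03. *Slc2a1* stood at 609, 419.7, 396 and 308 CPM without and at 560, 416, 441 and 394 CPM with inhibitors, and its interval ran from -0.28 to 0.41. The interval of *Bnip3* ran from -0.19 to 0.36, that of *Vegfa* from -0.85 to 0.34 and that of *Ddit4* from -0.95 to 0.44. These intervals come from the fit without the mouse, and those of *Egln3* (-0.89 to 0.75), *Adm* (-1.20 to 1.13) and *Ankrd37* (-1.07 to 1.31) are wide. *Hif1a*, *Vegfa* and *Ddit4* in TRAP were each lower with inhibitors in 4 of 4 mice, and the rest of the 8 genes were not. The share of all genes lower in 4 of 4 mice is not given here, so this count by sign is a description only. The fit with the mouse as a block called 0 of the 8, but a call needs more than 2-fold. Its FDRs for these genes are not given here. In the same libraries the 8 early response markers, genes such as *Fos* that transcribe within minutes of a stimulus, summed to 16400 to 28580 CPM in Cell-TRAP without inhibitors and to 478 to 535 CPM with them, and 8 of 8 were called lower. The difference between the fractions in the inhibitor effect was called for 0 of the 8 genes, where 0% of all genes were called higher and 0.145% lower, and edgeR gave 0 at an unadjusted p under 0.05 and the DESeq2 test called 0.

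Against Tissue, Cell (+) Inhibitors had 2 of the 8 genes called higher and 1 lower in Input, where 25.5% and 20.2% of all genes were, and 2 higher and 1 lower in TRAP, where 21.6% and 31.2% were. This comparison shares its Tissue libraries with the one without inhibitors. *Slc2a1* rose 12.1-fold in Input and 4.06-fold in TRAP, and *Hif1a* rose 2.75-fold in TRAP (log2 1.46 ± 0.12).

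**Figure D4:**
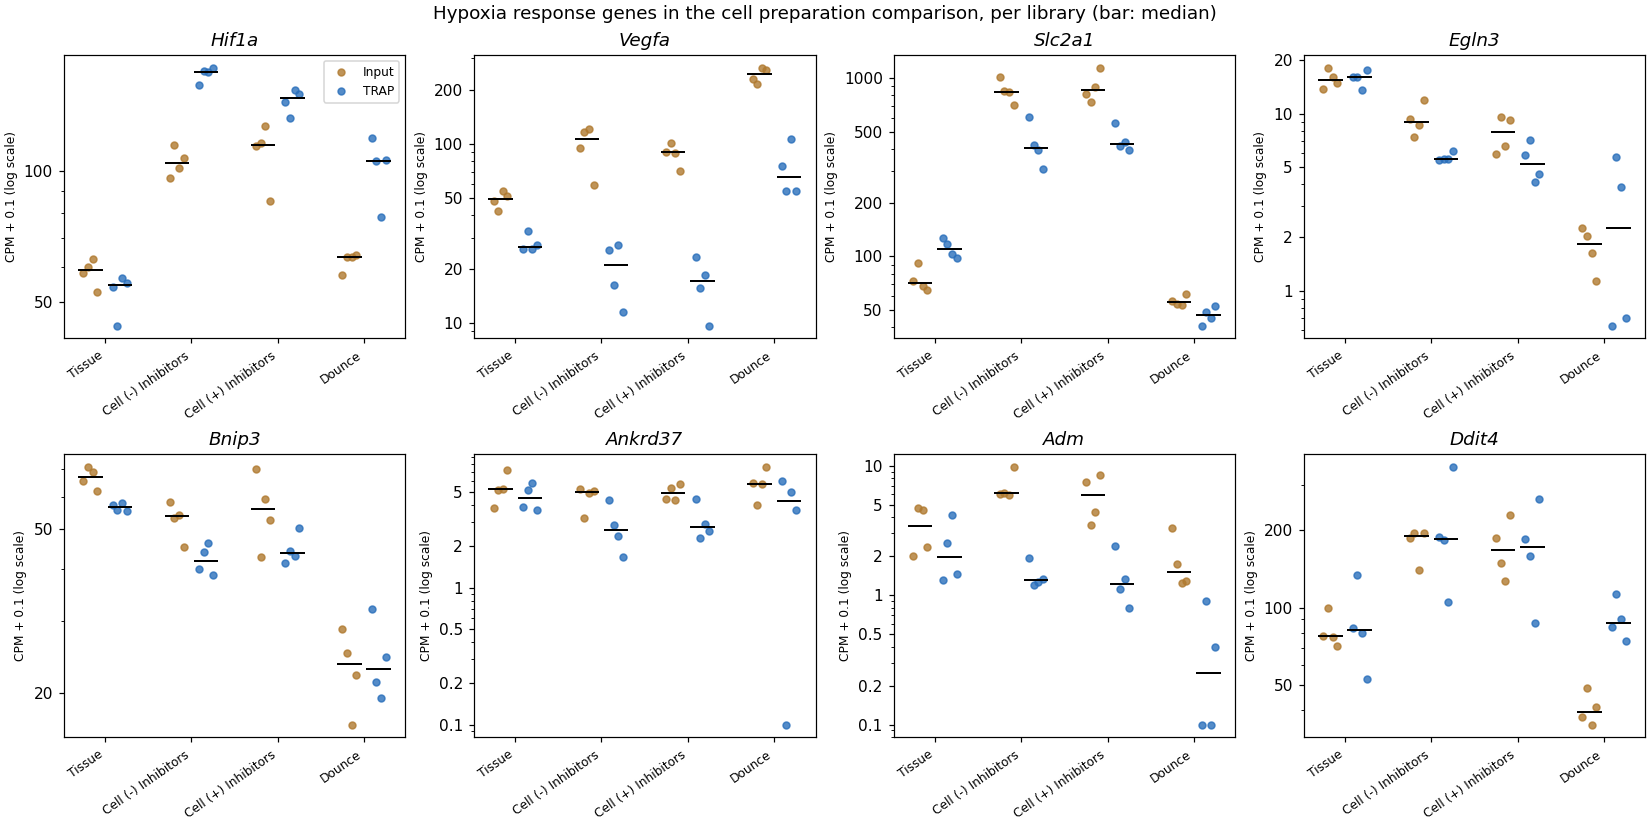
CPM + 0.1 (log scale) of the 8 genes in each library of the cell preparation comparison, Input in brown and TRAP in blue, with a bar at the median. *Slc2a1* is low in Dounce, *Vegfa* is highest in Dounce-Input, and Cell (−) and (+) Inhibitors lie together.

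Dounce was compared with Tissue and with Cell (−) Inhibitors. The study reported lower RNA yield and integrity in Dounce-Input than in Tissue-Input or Cell-Input, although each Dounce sample took an entire brain. It also reported more 3′ bias along genes in Tissue and Dounce than in Cell. The part of RNA quality in the Dounce results was not tested. Against Tissue, 1 of the 8 genes was called higher and 2 lower in Input, where 28.7% and 21.4% of all genes were, and 1 higher and 4 lower in TRAP, where 23.2% and 27.1% were. Against Cell (−) Inhibitors, 1 was called higher and 5 lower in Input, where 28.8% and 28.1% were, and 1 higher and 4 lower in TRAP, where 20.7% and 8.02% were.

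*Slc2a1* in Dounce-TRAP stood at 40.8, 48.9, 44.8 and 52.7 CPM, below every other library of the comparison in TRAP. It was 9.25-fold lower than in Cell-TRAP (−) (log2 -3.21 ± 0.18, FDR 2.15e-10) and 2.38-fold lower than in Tissue-TRAP (log2 -1.25 ± 0.18, FDR 4.63e-06). The endothelial markers summed to 58.7 to 83.5 CPM in Dounce-TRAP, to 150.1 to 233 CPM in Tissue-TRAP and to 492 to 1105 CPM in Cell-TRAP (−).

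*Vegfa* moved up in both fractions. Dounce-Input held 232, 217, 266 and 258 CPM against 47.7, 41.9, 54.5 and 51.1 CPM in Tissue-Input, 4.98-fold higher (log2 2.32 ± 0.18, FDR 5.94e-10), and it was 2.48-fold higher than in Cell-Input (−) (log2 1.31 ± 0.17). In TRAP it stood at 75.2, 54.7, 106.6 and 54.8 CPM, 2.60-fold higher than in Tissue-TRAP (log2 1.38 ± 0.28, FDR 0.000301) and 3.60-fold higher than in Cell-TRAP (−) (log2 1.85 ± 0.29, FDR 3.11e-05). All Dounce values lay above all Tissue values in both fractions. In Dounce-Input the blood list, of 3 genes, summed to 8635 to 10140 CPM against 103 to 187 CPM in Tissue-Input. There *S100a8* and *S100a9*, which neutrophils express strongly, stood at 51.8 to 336 and 98.6 to 639 CPM against at most 1.20 and 1.81 CPM. In Cell-Input (−) the blood list summed to 3484 to 8106 CPM. In TRAP it summed to 162 to 423.5 CPM in Dounce and 87.7 to 464.7 CPM in Cell (−), which overlap. Astrocyte markers summed to 1435 to 3831 CPM in Dounce-Input and 4426 to 4784 CPM in Tissue-Input, and choroid plexus markers to 116 to 172 and 1000 to 1555 CPM. The part of these cells in the *Vegfa* result was not tested.

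**Figure D5:**
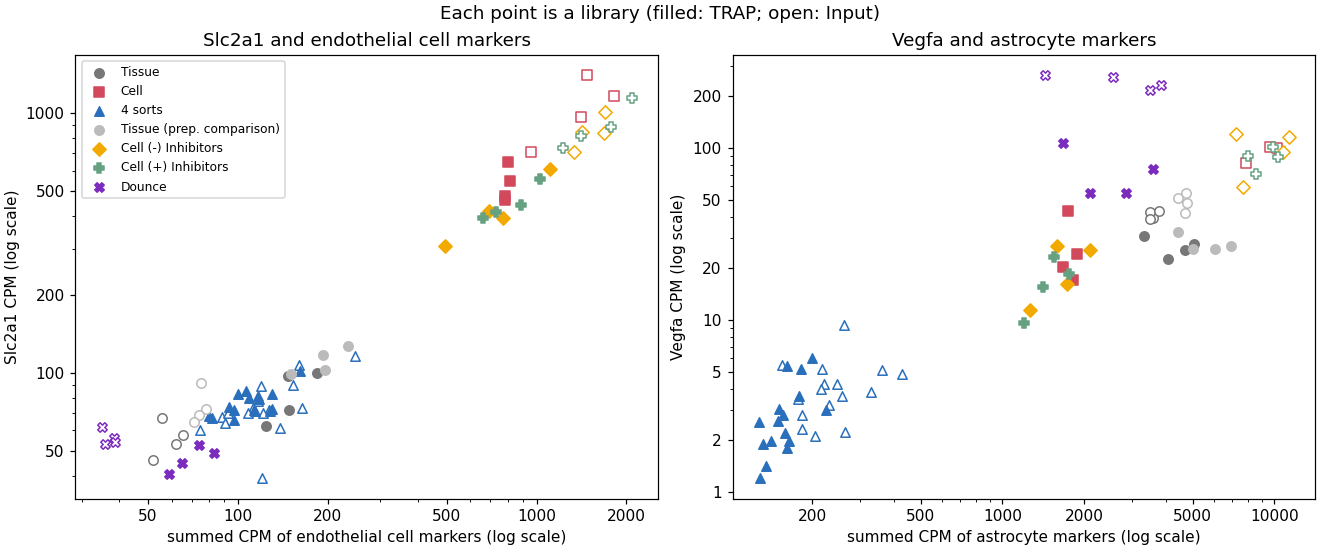
*Slc2a1* CPM against the summed CPM of endothelial markers (left) and *Vegfa* CPM against that of astrocyte markers (right), both axes on a log scale, with a point for each library, filled for TRAP and open for Input. *Slc2a1* is highest where endothelial markers are highest, and Dounce-Input has the highest *Vegfa* but not the highest astrocyte markers.

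*Egln3* was low in Dounce. In Dounce-Input it stood at 2.17, 1.95, 1.53 and 1.02 CPM, and it fell by 3.17 ± 0.26 on the log2 scale against Tissue-Input (9.02-fold lower, FDR 1.92e-09). In TRAP the libraries held 2, 28, 10 and 2 counts, and it fell by 2.54 ± 0.45 against Tissue-TRAP (FDR 6.16e-05). The 7 neuron markers summed to 5716 to 6870 CPM in this Tissue-TRAP and to 970 to 1726 CPM in Dounce-TRAP. In that comparison 7 of 7 were called lower. Against Cell-Input (−), *Egln3* was 5.31-fold lower in Dounce-Input (log2 -2.408 ± 0.265, FDR 8.57e-08). There the neuron markers went the other way, with 3398 to 3740 CPM in Dounce-Input and 377.3 to 689.1 CPM in Cell-Input (−). In Cell-TRAP (−) they summed to 77.04 to 175.3 CPM, below Dounce-TRAP. The part of neurons in these *Egln3* results was not tested. Against Cell-TRAP (−) the log2 fold change of *Egln3* in Dounce-TRAP was -1.04 ± 0.45 (FDR 0.0609). Without mouse 179 it was -0.70 (FDR 0.161), without mouse 182 it was -0.73 (FDR 0.155), and without mouse 1362 the FDR was 0.1. *Bnip3* fell by 1.52 ± 0.16 against Tissue in Input and by 1.22 ± 0.14 in TRAP. *Hif1a* in Dounce-TRAP, at 118.9, 105.2, 78.3 and 105.4 CPM, had a log2 fold change of 0.96 ± 0.12 against Tissue-TRAP and of -0.70 ± 0.12 against Cell-TRAP (−), both under the fold threshold. *Adm* in Dounce-TRAP held 0, 4, 0 and 1 counts and was called lower than in both others (FDR 0.00371 against Tissue-TRAP, 0.0379 against Cell-TRAP (−)). In TRAP, *Adm* and *Egln3* passed the filter on low counts only through groups other than Dounce, so these calls are not independent of that filter.

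*Ddit4* was lower in Dounce than in Cell (−) Inhibitors. Dounce-Input held 37.6, 48.6, 35.1 and 41.2 CPM against 186, 195, 140.1 and 195 CPM, 4.39-fold lower (log2 -2.14 ± 0.17, FDR 1.21e-09). In TRAP it fell by 1.19 ± 0.35 (FDR 0.00739), and without mouse 1362 the log2 fold change was -0.81. Against Tissue-TRAP it was 0.05 ± 0.34. *Ankrd37* did not pass the test against Tissue or Cell (−) in either fraction, with FDR from 0.288 to 0.75.

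The fractions of one preparation were compared to see how the tagged ribosomes differ from the whole lysate. In Tissue of the sort comparison 0 of the 8 genes were called, where 9.23% of all genes were called higher in TRAP and 1.87% lower, and in Tissue of the cell preparation comparison 0, where 8.21% and 2.31% were. At an unadjusted p under 0.05 edgeR gave 1 and 2 genes, and the DESeq2 test called 0 in both. In Cell of the sort comparison 0 were called higher and 2 lower, where 16.8% and 30.9% of all genes were, and with size factors the share of higher calls among all calls moved from 35.2% to 21%. With size factors or the DESeq2 test, 4 of the 8 were called in Cell of the sort comparison. In the 4 sorts 0 were called, where 0.0758% were called higher and 18.8% lower, edgeR gave 4 at an unadjusted p under 0.05, and the DESeq2 test called 0. The shares of all genes at the unadjusted threshold, and with size factors or the DESeq2 test, are not given here. In Cell (−) Inhibitors 0 were called higher and 2 lower, where 10.6% and 36.7% were, and in Cell (+) Inhibitors 0 and 2, where 9.71% and 35.8% were. In Dounce 3 were called higher and 2 lower, where 20.8% and 26.7% were, and size factors moved the share of higher calls among all calls from 43.8% to 34.4%.

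*Vegfa* was called lower in TRAP in each of the 4 unsorted suspensions, with log2 values of -1.57 ± 0.30 in Cell of the sort comparison, -2.26 ± 0.25 in Cell (−), -2.37 ± 0.25 in Cell (+) and -1.38 ± 0.24 in Dounce. *Adm* was called lower in the same 4. In Dounce *Ddit4* rose by 1.53 ± 0.30 in TRAP (FDR 5.02e-05), and *Hif1a* by 1.09 ± 0.12, which was 0.87 with size factors, while *Egln3* (1.03 ± 0.42) lost its call with the mouse as a block (log2 0.84). Without mouse 180 the log2 fold change of *Egln3* was 0.22 and without mouse 181 it was 0.55. The FDR of *Adm* was 0.17 without mouse 179.

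Of the other genes of the pathway, 58 listed genes were tested. In Cell-TRAP against Tissue-TRAP 23 were called higher and 15 lower, against 25.1% and 29.3% of all genes. *Calcrl*, a receptor for adrenomedullin, rose 15.5-fold (log2 3.95 ± 0.14) and the haem oxygenase *Hmox1* 4.24-fold. *Arnt2*, a partner subunit, fell by 3.48 ± 0.19 and the glycolytic enzyme gene *Pfkp* fell by 3.12 ± 0.20. The carbonic anhydrase gene *Car12* fell by 2.18 ± 0.55 and *Higd1a*, a mitochondrial protein gene, fell by 1.79 ± 0.13. With the inhibitors 0 were called higher and 2 lower in TRAP, against 0.00679% and 0.632% of all genes. Of these, *Cited2*, which competes with HIF for a coactivator, fell by 2.81 ± 0.19 on the log2 scale. In Dounce-TRAP against Cell-TRAP (−) 4 were called higher and 21 lower, against 20.7% and 8.02% of all genes. *Pfkp* rose by 2.10 ± 0.16 on the log2 scale and *Cited2* fell by 3.02 ± 0.20. *Anxa2* fell by 3.92 ± 0.36 and *Ndrg1* fell by 2.21 ± 0.29. *Ramp2*, a partner of *Calcrl*, fell by 3.37 ± 0.46. *Angptl4* held 0 counts in all 4 Dounce-TRAP libraries, which against a floor of 3 counts per library is at least 4.94-fold lower than in Cell-TRAP (−).

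Over the 48 libraries of the sort comparison, the gene whose log2 CPM was most like that of *Hif1a* was *Tmx3* (Pearson's r = 0.981), with r = 0.558 over the 32 libraries of the other comparison. For *Slc2a1* these were *Sgms1* (0.963 and 0.956) and *Cdh5*, a cadherin of endothelial cells (0.952 and 0.950), and for *Vegfa* they were *D630003M21Rik* (0.965 and 0.665) and *Mt2* (0.958 and 0.194). For *Bnip3* it was *Rab2a* (0.844 and 0.938), for *Egln3* *Wbp5* (0.881 and 0.871) and for *Adm* *Hapln1* (0.919 and 0.759). For *Ankrd37* it was *Ube2e2* (0.821 and 0.405) and for *Ddit4* *Fkbp5*, a glucocorticoid-responsive gene, at 0.688 and 0.754. These r are descriptions across libraries that share mice, preparation and depth.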

How the data were processed

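Brain RNA of Cx3cr1-NuTRAP mice was sequenced as Input and TRAP libraries. The authors aligned the reads to mm10 in Strand NGS, removed duplicate reads and quantified each gene, and the deposited expected counts are these values, mostly not whole. The deposited tables list only genes above 5 counts in all samples of some group. The log2 columns, which the authors normalized and baselined, were not used.

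Expected counts were rounded to whole numbers, scaled by TMM and tested with edgeR 4.0.16 in R 4.3.3, on Input and TRAP separately and, for TRAP against Input, together. The same minimum was applied within the groups of each fit. All groups of a fit shared one estimate of the spread. A gene was called at an FDR under 0.1 and above 2-fold. On simulated data, 97.5% to 100% of 200 genes changed 4-fold were recovered, in fits of 14054 to 15321 genes. The changed genes were drawn from those above a minimum mean level that *Adm* did not reach in any fit. *Ankrd37* reached it only in Input of the cell preparation comparison, and *Egln3* did not reach it in TRAP of the sort comparison. Smaller changes, such as those near 2-fold, were not simulated. Precision is limited in Dounce-TRAP by its 2471448 to 4724538 counts. Alternatives were DESeq2 1.42.0, size factors, other filters, leaving out each library and a mouse block. The mouse pairs samples because they come from the same animal. The correlation of same-mouse deviations ran from -0.107 to 0.361 over 56 pairs, and 32 were over 0.1.

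The 8 genes, the pathway and marker lists and the tests were chosen with earlier results of these data known. For likeness, the gene with the highest Pearson's r of log2 CPM was named, with a second where described, among genes with a mean of at least 1 CPM. In the pathway list, the gene with the largest change of each group of the list was named. One gene that this rule names is not reported here. The study reported that brains were processed by hemisphere, with an entire brain for each Dounce sample, and that libraries were made without pooling. Input and TRAP of a preparation came from the same lysate. The p-values measure the spread between these samples. Intervals are 95% intervals of the fit.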

Additional observations from a re-analysis of the deposited data

Results flagged for a closer look

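In groups of 4 or 5 libraries, 10 of 144 groups tested held a library far from the others by Dixon's test, where chance alone gives about 1 in 20. In Input these were *Egln3* at 4.51 CPM in Tyto mouse 69, *Adm* at 0.399 CPM in autoMACS mouse 72, *Hif1a* at 57.4 CPM in Dounce mouse 179, *Ankrd37* at 3.12 CPM and *Adm* at 9.73 CPM in Cell (−) Inhibitors mice 157 and 1362, and *Ddit4* at 140.1 CPM in Cell (−) Inhibitors mouse 1361. In TRAP they were *Hif1a* at 225.1 CPM in FACSAria mouse 991, *Adm* at 0 CPM in autoMACS mouse 66, *Ddit4* at 112.5 CPM in Tissue mouse 947 and *Egln3* at 6.02 CPM in Cell (−) Inhibitors mouse 1362. *Adm* in autoMACS held 0 to 3 counts in Input and 0 to 5 in TRAP, so its values there lie near the floor.

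The effect of dissociation differed between TRAP and Input by the interaction test of edgeR for *Vegfa* (log2 -1.15), *Slc2a1* (-1.47) and *Adm* (-1.72) in the sort comparison.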

How the results depend on the processing

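Of 63 calls of the 8 genes none changed direction in any alternative run. Of 362 alternatives for the counts of called genes, 337 stayed within 1.5 times. With at least 10 counts in every sample, the called genes went from 5 to 3 for Cell against Tissue in Input, for Dounce against Tissue in TRAP and for Dounce against Cell (−) in TRAP, from 2 to 1 for TRAP against Input in Cell (−) and Cell (+), and from 5 to 2 in Dounce. This filter tests fewer of the 8 genes. With size factors or the DESeq2 test, TRAP against Input gave 3 in Dounce and 4 in Cell of the sort comparison, and the DESeq2 test across the sorts in Input gave 1. The cause was not tested. Leaving out 1 library gave 2 to 4 for Cell (−) against Tissue in Input, 3 to 5 for Dounce against Cell (−) in TRAP, for TRAP against Input in Dounce and for Cell against Tissue in Input, and 0 to 1 across the sorts in each fraction. With the replicate block of the mouse, Cell against Tissue gave 4 called genes in Input and 4 in TRAP. TRAP against Input gave 4 in Dounce. Among all genes, calls in these comparisons went from 7248 to 7205, from 8125 to 8074 and from 7544 to 7568. The block changed no call other than those of *Hif1a* and *Egln3* given above. The shares of all genes called in the other alternatives of this section are not given here. In the shallow Dounce-TRAP libraries *Adm* had 0 to 4 counts and *Egln3* 2 to 28.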
